A study of Drosophila melanogaster with 12 samples.

Results

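The transcripts described here are the CR-numbered noncoding RNAs that Drosophila melanogaster S2 cells were counted to express: genes whose symbol in the deposited count table is CR followed only by digits. Members were chosen from the counts themselves, as the symbols with a total of at least 60 counts over the 12 libraries, and CR44029 was left out. This gave 260 members among 2385 CR-numbered symbols, of 16718 genes in the table, of which 7568 reached 60 counts. CR44029 was left out because it had already been called in the comparison of double RNAi with control, and its adjusted p was also under 0.05 in the test of any difference among the groups. The absence of calls among the rest in both tests is thus in part set by the choice of members. The total that chose the members is summed over all groups, so the levels below are a description and support nothing by themselves.

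In the fly annotation a CR number marks a gene model with no long open reading frame. Such long noncoding RNAs are transcribed by RNA polymerase II, capped, often spliced and polyadenylated like messenger RNAs, and many lie antisense to a protein-coding gene, within its introns or at its ends. Some are host transcripts from which microRNAs or small nucleolar RNAs (snoRNAs, the guides of ribosomal RNA modification) are cut, some act as RNAs in the nucleus, and most have no known role. Many noncoding transcripts are short-lived because the nuclear exosome degrades them, so a level in total RNA reflects both synthesis and decay. Polyadenylation decides which of them are seen by an assay that primes on the poly(A) tail, as was used here.

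S2 is an established line derived from fly embryos with macrophage-like properties. Cells were untreated (control) or were given dsRNA, the double-stranded RNA that sets off RNA interference (RNAi), against the insulator protein gene BEAF-32 (BEAF-32 RNAi), against row, a zinc finger protein gene of a chromatin complex (row RNAi), or against both genes (double RNAi). Each of the 4 groups had 3 libraries, and per the labels' protocols cells received 2 doses of dsRNA, 4 and then 8 µg per ml, at an interval of 2 days, and were collected 2 days after the last dose. Control cells received no dsRNA of any sequence, all groups share the same cell line, and depletion was measured on transcripts only. Nothing in the labels says that the 3 libraries of a group came from separate cultures, and the spread behind each p-value may therefore be technical.

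Libraries held 2276507 to 3963412 counts, and 245 to 258 of the 260 members had a count in a given library. Members took 1.46% to 2.07% of a library's counts. The targeted genes averaged lower where they were targeted: BEAF-32 averaged 57.2 ± 12.6 CPM (counts relative to a library total scaled by TMM, the trimmed mean of M-values; SD, n = 3) in control, 21.0 ± 5.31 in BEAF-32 RNAi and 29.9 ± 3.59 in double RNAi, and row averaged 50.7 ± 3.04 in control, 26.2 ± 5.99 in row RNAi and 31.4 ± 5.15 in double RNAi. BEAF-32 passed the test in BEAF-32 RNAi and double RNAi (adjusted p = 1.77e-04 and 0.0322) and row passed in row RNAi (adjusted p = 0.0379), but row in double RNAi did not (log2 change -0.71, SE 0.22, adjusted p = 0.202). Among 12 measured hemocyte and S2 markers, 11 passed the filter on low counts. Of other cell types, 4 crystal cell markers summed to 1.87 to 4.87 CPM in control, 5.31 to 9.14 in BEAF-32 RNAi, 3.00 to 6.20 in row RNAi and 2.21 to 5.05 in double RNAi, with lz and PPO1 listed at 0 and PPO2 tested and not called. Over all libraries 4 muscle markers summed to at most 2.19 CPM and 4 neuron markers to 23.9 to 40.3 (mostly Syt1 and elav). Likewise 4 germ line markers summed to 48.4 to 78.4 CPM (mostly aub, with vas at 4 counts in all) and 2 somatic ovary markers to 3.42 to 10.1. Only 0 muscle, 2 neuron, 2 germ line and 1 somatic ovary markers were tested. Among these 0 were called by edgeR and 0 had an unadjusted p under 0.05, and with so few tested nothing is read from this. Summed hemocyte markers were 2435 to 2450 CPM in control, 2201 to 2305 in BEAF-32 RNAi, 2166 to 2309 in row RNAi and 1938 to 2181 in double RNAi. In the 3 dsRNA groups 0, 2 and 1 of the 11 tested were called lower, and 6, 4 and 4 lay above 0. Over all genes tested 0.0271%, 0.19% and 0.271% were called in either direction. The list was written with earlier results of these data known and includes Nplp2, so its sums and calls are a description only. Summed lamellocyte markers (6 genes, 4 of them tested) were 473 to 503 CPM in control, 518 to 620.2 in BEAF-32 RNAi, 533 to 664 in row RNAi and 581 to 712 in double RNAi, with 1 called higher in double RNAi. The part of these shifts in the members' values was not tested, and in bulk RNA fewer cells of a kind and less RNA per cell cannot be told apart.

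Of the 260 members 256 were matched by name to the fly reference annotation, where 149 are long noncoding RNAs, 102 antisense RNAs and 1 a small noncoding RNA (CR43701). The reference lists 3 others as protein coding (CR42848, CR43051 and CR44404, the last now named IBIN, a gene induced by infection) and 1 as a pseudogene (CR42875). The label noncoding therefore held in the reference for 252 of the matched members. CR40594, CR40679, CR40766 and CR46201 had no match and are known here by number only. By position 156 members overlap a gene on the opposite strand, 38 overlap a gene on the same strand only, and 62 overlap no annotated gene. Each member was given 1 role, with hosts placed first and the same strand before the opposite one, so more members share exon bases than the roles show. In the roles used below, 119 share exon bases with a gene on the opposite strand, 29 share them with one on the same strand and 59 overlap none. Another 31 overlap a gene mostly through an intron only. Exceptions there are CR43253, CR43939 and CR44619, whose exons overlap a noncoding gene on the same strand. A further 12 host a microRNA and 2 host snoRNAs.

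Counts assigned to the members were concentrated in very few of them. CR40469, on the X chromosome and overlapping no annotated gene, held 38.7% of all member counts, and together with CR42491, also on the X, it held 67.0%. The 12 highest members held 83.6%. Members on the X held 76.6%, although only 50 of the 260 members lie there. CR42491 alone held 28.4%, and whether its counts include reads of RpL22, with which it shares exon bases, was not tested. Without it CR40469 held 54.0% of the remaining member counts and the X 67.4%. Below these few, levels were low: the median member averaged 4.47 CPM over the 12 libraries, 15 members reached 100 CPM, 79 reached 10 and 135 stayed under 5. CPM counts transcript ends here, so it is not scaled by transcript length. A count of 0 in 1 library allows a level of up to 1.32 CPM in the shallowest library and 0.757 CPM in the deepest (3 counts; counting error only), and 204 of the members had a count in every library.

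**Figure D1:**
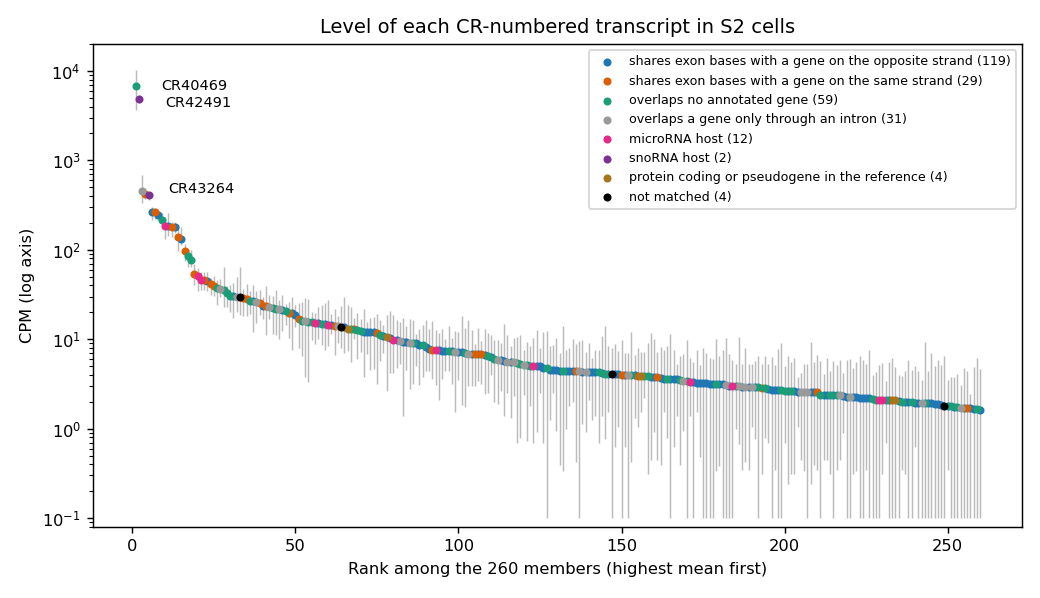
Mean CPM over the 12 libraries (log scale) of the 260 members, ranked from the highest, with a line from each member's lowest to its highest library (where the lowest library is 0, the line stops short of it, since a log axis has no 0). CR40469 and CR42491 stand above the rest, and the median member lies at 4.47 CPM.

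CR40469, a transcript of 214 bases in 1 exon in the reference, varied the most of the 12 highest members, with a highest library at 2.78 times the lowest. It stood at 9363, 6247 and 6372 CPM in the control libraries, 10144, 8605 and 6490 in BEAF-32 RNAi, 6183, 6046 and 6357 in row RNAi and 5961, 5365 and 3654 in double RNAi. Double RNAi lay below every control library, while control and BEAF-32 RNAi overlapped and row RNAi was the most even group. The group means were 7327 ± 1764, 8413 ± 1834, 6195 ± 156 and 4993 ± 1198 CPM (SD, n = 3 each). In double RNAi the change did not pass the test (log2 change -0.55, SE 0.24, unadjusted p = 0.0459, adjusted p = 0.564), and it was -0.34 without control replicate 1 and -0.38 without double RNAi replicate 3. Ribosomal protein genes took 42.1% of the counts of the first of these libraries, the most of any, and 38.4% of those of the second, the least, and the part of this in the result was not tested. A different fit, limma-voom, called the same contrast (log2 change -0.60, adjusted p = 0.00795).

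CR42491 was the steadiest of the 12 highest members, with a highest library at 1.18 times the lowest. It overlaps exons of RpL22, which encodes a protein of the large ribosomal subunit, on the same strand, and its model contains a snoRNA. Its values were 4884, 4881 and 4815 CPM in the control libraries, 4843, 4836 and 4855 in BEAF-32 RNAi, 4925, 5214 and 5110 in row RNAi and 4841, 4655 and 4414 in double RNAi. Control and BEAF-32 RNAi were nearly equal, and row RNAi lay above every control library by a log2 change of 0.065 (adjusted p = 0.987). RpL22 itself also lay above every control library in row RNAi, by a log2 change of 0.063 (adjusted p = 0.989). The total count of CR42491 was 91.3% of that of RpL22, and 90.7% to 92.7% in each library. CR45184, the other snoRNA host, overlaps the splicing factor gene Sf3b3 (CG13900 in the count table) on the same strand. It stood at 432, 437 and 405 CPM in the control libraries, 408, 445 and 359.9 in BEAF-32 RNAi, 375, 393 and 434 in row RNAi and 433, 439 and 421 in double RNAi, with all groups overlapping control. Its count was 99.6% of that of Sf3b3, and 99.0% to 100% per library.

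CR45018 shares exons with IP3K2, an inositol trisphosphate kinase gene, on the same strand, and its total was 3.56 times the count of that gene. It stood at 441, 440.4 and 407 CPM in the control libraries, 461, 466 and 493 in BEAF-32 RNAi, 371, 383 and 365 in row RNAi and 396, 436 and 389 in double RNAi. Every BEAF-32 RNAi library lay above every control library and every row RNAi library below, while double RNAi overlapped control. The sizes were small: a log2 change of 0.14 in BEAF-32 RNAi and -0.20 in row RNAi (SE 0.09, unadjusted p = 0.0203, adjusted p = 0.731). IP3K2 itself had log2 changes of 0.19 and -0.27, values of the same sign, and the handling of reads from shared exons was not given in the sources used here.

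Of the other transcripts among the 12 highest, CR43264 (X, within an intron of CG15765 on the other strand) stood at 486, 378 and 366 CPM in the control libraries, 689, 520.2 and 348 in BEAF-32 RNAi, 332, 345 and 389.9 in row RNAi and 552, 602 and 418 in double RNAi, and every group overlapped control. CR43334, the host of bantam (mir-ban), a microRNA that promotes growth and blocks cell death, stood at 188, 204 and 133 CPM in the control libraries, 226, 232 and 186 in BEAF-32 RNAi, 153, 176 and 194 in row RNAi and 197, 174 and 179 in double RNAi. BEAF-32 RNAi averaged higher but overlapped control (log2 change 0.29, SE 0.12, unadjusted p = 0.0196, adjusted p = 0.848). CR43883, which overlaps no gene, averaged 191 ± 18.0 CPM in control, 230.0 ± 30.02 in BEAF-32 RNAi, 214 ± 26.04 in row RNAi and 227 ± 22.0 in double RNAi (SD, n = 3 each), with overlapping groups. CR45204, on the same strand as Imp, an RNA-binding protein gene, stood at 161, 153 and 194 CPM in control and 199, 196 and 205 in double RNAi. Double RNAi lay above every control library by a log2 change of 0.24 (adjusted p = 0.547). Imp, with which CR45204 shares exon bases, also lay above every control library there (log2 change 0.20, adjusted p = 0.501). The part of shared reads in this was not tested. CR44814, opposite the translation factor gene eEF5 (eIF-5A in the count table), averaged 174 ± 42.0 CPM in control and 216 ± 37.3 in double RNAi, and these groups overlapped. CR43812, CR42862 and CR31514 averaged 268, 261 and 244 CPM, and none of their log2 changes against control was farther from 0 than 0.11.

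**Figure D2:**
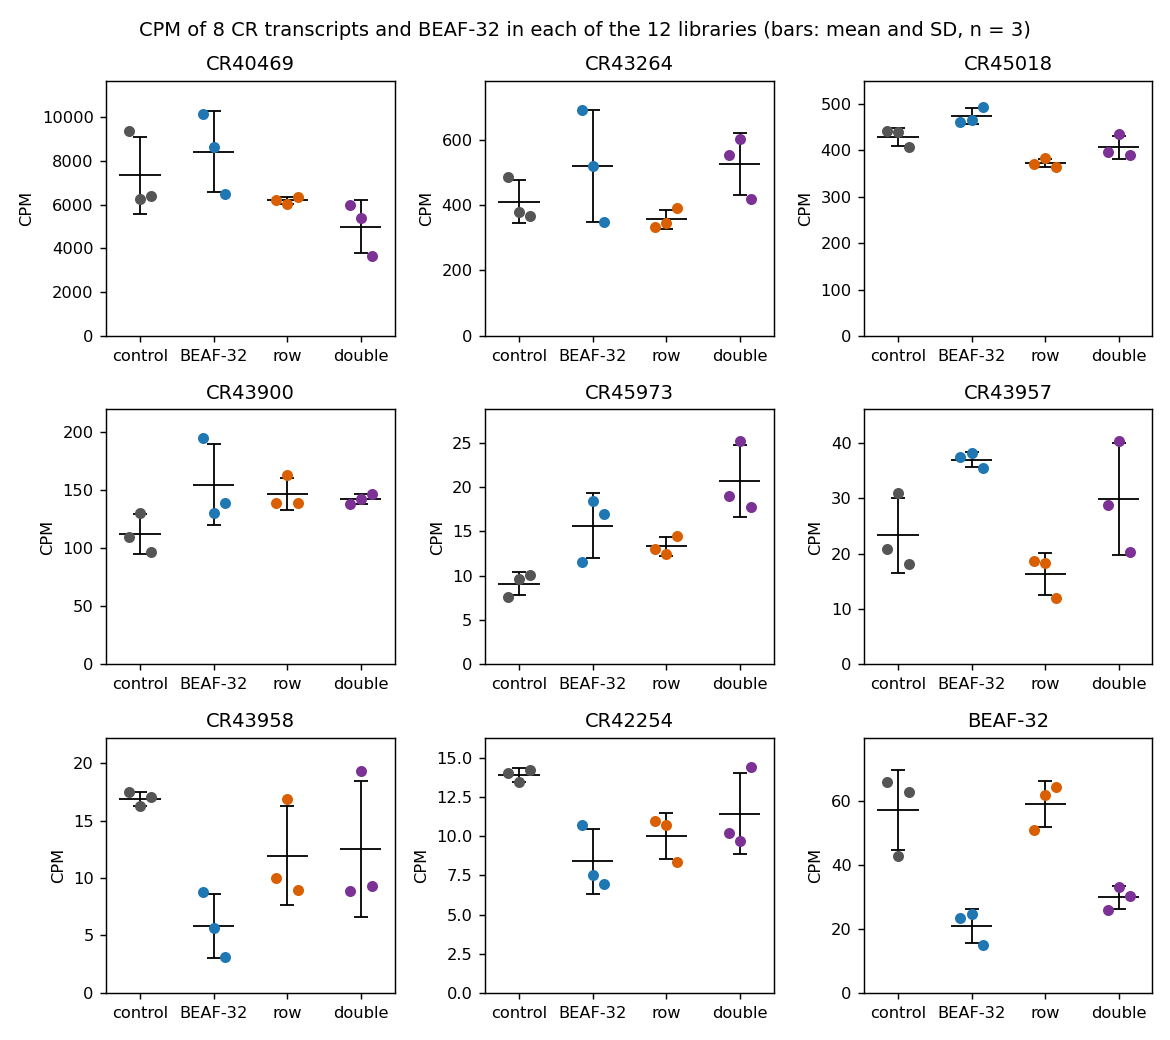
CPM in each of the 12 libraries (points) for 8 CR-numbered transcripts and BEAF-32, with the group mean and SD (n = 3 per group); each panel has its own linear axis from 0. CR45973 lies above control in all 3 dsRNA groups, and CR40469 in double RNAi lies below every control library.

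Overlap with other genes bears on what these counts measure. Among 36 pairs of a member and a gene on the same strand that share exon bases (35 members), the median member had 30.6% of its partner's counts. In 5 of them the totals were within 90% to 110% of each other: CR42491 with RpL22, CR42549 with mura, CR44097 with CG6000, CR43836 with CG10962 and CR45184 with Sf3b3. Such pairs are uncertain, for the reason given above. Among 155 pairs on opposite strands (130 members) the median was 15.3%, with the member counted higher in 48 pairs and the partner at least 10-fold higher in 67. CR31144 held 0.364% of the counts of RpL3 opposite it and CR45305 held 0.207% of those of RpL37A, both ribosomal protein genes. CR31514 held 4.34% of the counts of RpS29 but 36.9 times those of CG12947, also on the opposite strand. The table gives each gene a strand, and for all 256 matched members it was that of the reference, but whether counting used it is not stated in those sources.

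**Figure D3:**
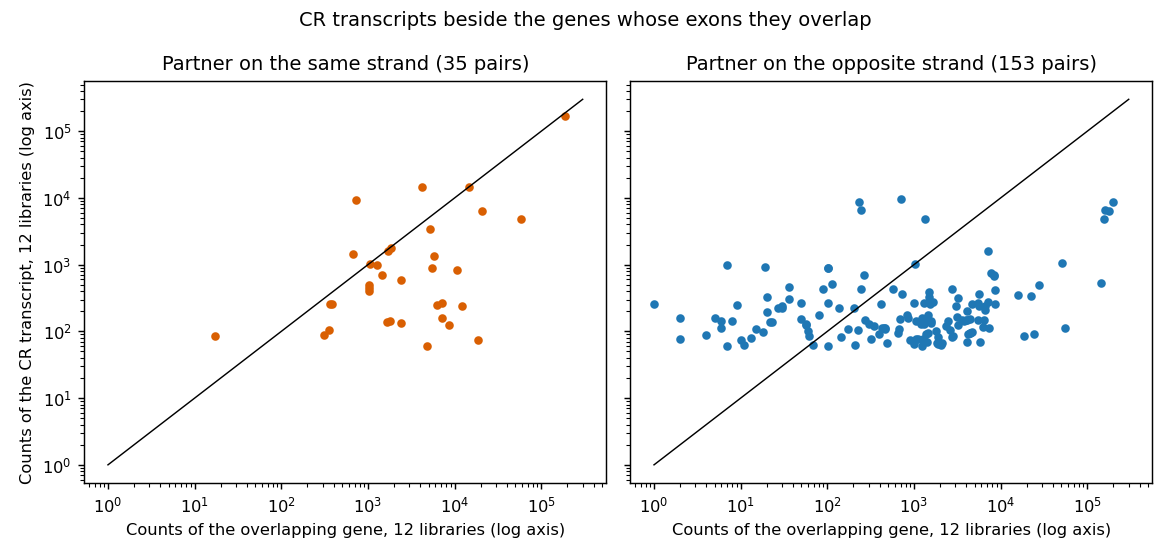
Total counts of each CR-numbered transcript against those of the gene with which it shares exon bases, on log axes, for the 35 same-strand and 153 opposite-strand pairs whose partner had a count; the diagonal marks equal counts. In 5 same-strand pairs the totals lie within 90% to 110% of each other, and in 67 opposite-strand pairs the partner is at least 10-fold higher.

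At the edge of the rule the counts were sparse and uneven. Just inside lay CR44779 and CR45640, each with 60 counts in all, and just outside CR42839 and CR45945, each with 59. CR44779 had 0 to 7 counts in a library and CR45640 had 0 to 15, against 0 to 11 for CR42839 and 0 to 8 for CR45945. The filter on low counts left 222 of the 260 members for testing, and the 38 it removed had at most 107 counts in all. A member could pass that filter through 1 group alone, so the counts below describe the tested members and not all members. The spread between libraries was wide: the median biological coefficient of variation was 0.388 for members against 0.182 for all genes tested, and it was 0.206 for members of at least 10 CPM and 0.448 for the rest.

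A test of any difference among the 4 groups called 0 of the 222 tested members in edgeR's quasi-likelihood test at an adjusted p of 0.05, where 0.38% of all genes tested were called. CR44029, which was left out, had an adjusted p of 0.0455 in this test, so nothing is read from the count of 0. Without adjustment 17 members (7.66%) had a p under 0.05, against 7.74% of all genes. DESeq2 called 1 member (CR45018, adjusted p = 0.0336) and limma-voom 1 (CR40469, adjusted p = 2.45e-04). The member closest to the threshold was CR43957, a chromosome 4 transcript antisense to ci, the transcription factor gene of Hedgehog signalling. It stood at 20.9, 30.9 and 18.1 CPM in the control libraries, 37.4, 38.1 and 35.4 in BEAF-32 RNAi, 18.6, 18.3 and 12.0 in row RNAi and 28.8, 40.4 and 20.4 in double RNAi. BEAF-32 RNAi lay above every control library, while row RNAi and double RNAi overlapped control. Its adjusted p for any difference was 0.0830 (unadjusted p = 0.000551), and it passed without double RNAi replicate 3 (adjusted p = 0.0386) and with no filter on low counts (0.0296). The next member, CR45018, had an adjusted p of 0.148.

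In BEAF-32 RNAi no member passed the test against control (0 of 222 in edgeR and also in DESeq2 and limma-voom), where 0.0271% of all genes were called. Of the members 17 (7.66%) had an unadjusted p under 0.05, as did 5.18% of all genes. Groups did not overlap for 16 members that were higher (background 4.72%) and 11 that were lower (background 5.5%). Of the tested members 117 lay above 0 and 105 below, with a median log2 change of 0.02 and quartiles of -0.34 and 0.29. All genes tested had a median of -0.00066 and quartiles of -0.16 and 0.16.

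CR42254 is antisense to BEAF-32, the gene targeted in this contrast, and shares exon bases with it. It stood at 14.04, 13.4 and 14.3 CPM in the control libraries, 10.7, 7.49 and 6.94 in BEAF-32 RNAi, 10.99, 10.7 and 8.34 in row RNAi and 10.2, 9.68 and 14.4 in double RNAi. BEAF-32 RNAi and row RNAi lay below every control library, and double RNAi overlapped control through its replicate 3. The change in BEAF-32 RNAi did not pass (log2 change -0.73, SE 0.40, unadjusted p = 0.0694, adjusted p = 0.929), and row RNAi, in which BEAF-32 was not targeted, had a log2 change of -0.47 and double RNAi -0.27. BEAF-32 itself had a log2 change of -1.44 in BEAF-32 RNAi and 0.052 in row RNAi. Whether the dsRNA covers bases that CR42254 shares with BEAF-32 was not given in the sources used here.

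Chromosome 4, the small and largely heterochromatic chromosome, carries 7 members, and 4 of them had an unadjusted p under 0.05 in BEAF-32 RNAi, in both directions (2 above 0 and 2 below). Over all genes tested the share was 5.18%, and among the 60 tested genes of chromosome 4, which include these members, 8 reached it. The direction over the 7 members was mixed in BEAF-32 RNAi, with 4 above 0 and a median log2 change of 0.22, while 6 of 7 lay below 0 in row RNAi (median -0.50) and 5 of 7 above in double RNAi (median 0.20), with 0 at an unadjusted p under 0.05 in these. CR44029, also on chromosome 4, is not among the 7 members because it was called in double RNAi. The count of 0 there is thus in part set by the choice of members, and nothing is read from it. CR43958, on the same strand as Tdg (Thd1 in the count table), a DNA glycosylase gene, stood at 17.5, 16.2 and 17.0 CPM in control, against 8.74, 5.62 and 3.12 in BEAF-32 RNAi. The groups did not overlap, and this was the member with the smallest adjusted p of the contrast (log2 change -1.54, SE 0.42, unadjusted p = 0.000556, adjusted p = 0.382). In row RNAi it stood at 9.99, 16.9 and 8.96 CPM and in double RNAi at 8.86, 19.4 and 9.35. Tdg had a log2 change of -0.08 in BEAF-32 RNAi. CR44030, antisense to fuss, a gene of the Ski and Sno family, stood at 13.3, 9.68 and 7.30 CPM in the control libraries, 29.4, 16.9 and 13.5 in BEAF-32 RNAi, 6.99, 13.4 and 12.7 in row RNAi and 13.3, 20.2 and 7.43 in double RNAi. BEAF-32 RNAi again lay wholly above control, by a narrow margin (log2 change 0.98, SE 0.39, unadjusted p = 0.0145, adjusted p = 0.848). CR43957 also averaged higher in BEAF-32 RNAi (log2 change 0.66, SE 0.27, unadjusted p = 0.0160, adjusted p = 0.848) and CR46201, unmatched, averaged 5.41 ± 3.53 CPM in control against 1.54 ± 1.74 in BEAF-32 RNAi, with overlap (log2 change -1.74, adjusted p = 0.919). The others, CR44027 antisense to dati, CR44031 antisense to Mpv17 (CG11077 in the count table) and CR45126 antisense to Taf3 (bip2 in the table), had log2 changes of -0.61, 0.22 and 0.27 in BEAF-32 RNAi. Mpv17 itself fell in double RNAi, from 138 ± 8.64 to 87.5 ± 2.86 CPM (log2 change -0.66, adjusted p = 0.00609), where CR44031 had a log2 change of 0.069. The 60 tested genes of chromosome 4 had medians of 0.02, -0.08 and 0.01 in BEAF-32 RNAi, row RNAi and double RNAi.

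Of the other members named in BEAF-32 RNAi, CR43493, within an intron of l(1)G0196 on the opposite strand, stood at 12.1, 9.68 and 14.3 CPM in control, against 17.1, 23.1 and 23.6 in BEAF-32 RNAi (log2 change 0.83, SE 0.36, unadjusted p = 0.0248, adjusted p = 0.860). CR45312 stood at 14.4, 15.0 and 10.8 CPM in control, against 7.15, 7.81 and 7.98 in BEAF-32 RNAi (log2 change -0.80, adjusted p = 0.929). CR44965, on the X and much more highly counted, stood at 103, 93.4 and 96.6 CPM in control, against 72.3, 64.3 and 90.6 in BEAF-32 RNAi (log2 change -0.37, adjusted p = 0.848). The first lay above control in every library and the others below, and neither CR45312 nor CR44965 overlaps an annotated gene. CR43900, on the same strand as the calmodulin gene Cam with 8.52% of its counts, had the second smallest p of the members, although its groups overlapped in this contrast. It stood at 110.1, 131 and 97.0 CPM in the control libraries, 195, 131 and 139.5 in BEAF-32 RNAi, 139, 163 and 139 in row RNAi and 138, 143 and 147 in double RNAi. BEAF-32 RNAi replicate 2 lay level with the highest control library, and row RNAi and double RNAi lay wholly above control. Its log2 changes were 0.45 in BEAF-32 RNAi (unadjusted p = 0.00117, adjusted p = 0.538), 0.38 in row RNAi (adjusted p = 0.510) and 0.34 in double RNAi (adjusted p = 0.465), all against the same control libraries. Cam had log2 changes of -0.0039, 0.15 and 0.018 in these groups.

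In row RNAi 0 of 222 members passed the test in edgeR, DESeq2 or limma-voom, where edgeR called 0.19% of all genes. Unadjusted, 8 members (3.6%) had a p under 0.05, fewer in share than the 5.73% of all genes. Groups did not overlap for 15 higher members (background 5.69%) and 17 lower members (background 6.09%). The members leaned slightly to the low side, with 97 above 0 and 125 below, a median log2 change of -0.03 and quartiles of -0.35 and 0.30. All genes tested had a median of -0.0044 and quartiles of -0.17 and 0.15. The smallest adjusted p was 0.358, of CR40594, which has no reference match and was named after its values were seen. It stood at 19.7, 18.7 and 25.7 CPM in control and 23.3, 64.5 and 28.7 in row RNAi, where replicate 2 alone was high and the groups overlapped.

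The members named in row RNAi were mostly of low count. CR43253, which shares exon bases with the noncoding gene CR32194 on the same strand, stood at 0.759, 1.25 and 1.04 CPM in control and 4.66, 5.86 and 4.63 in row RNAi. Row RNAi lay wholly above control (log2 change 2.25, SE 0.91, unadjusted p = 0.0162, adjusted p = 0.721), but control held 2 to 4 counts per library. CR43253 may have passed the filter on low counts through row RNAi alone, where it was high, so these values are a description only. CR45530, which overlaps no gene, stood at 2.66, 2.81 and 5.21 CPM in control, 5.33, 8.27 and 9.27 in row RNAi and 6.64, 11.8 and 9.11 in double RNAi, both of them wholly above control (log2 changes 1.09 and 1.36, adjusted p = 0.861 and 0.500). CR42549, within the pair with mura above, had a log2 change of 0.36 (adjusted p = 0.867), from 41.4 ± 6.55 to 53.3 ± 3.61 CPM. The gene mura had a log2 change of the same sign in row RNAi (0.27, adjusted p = 0.984), with overlapping groups. On the low side CR43257, antisense to the ecdysis-triggering hormone gene ETH and the replication origin gene Orc4, stood at 9.49, 4.37 and 4.87 CPM in the control libraries, 3.58, 12.8 and 10.8 in BEAF-32 RNAi, 1.33, 3.10 and 0.927 in row RNAi and 3.99, 2.53 and 2.64 in double RNAi. Row RNAi and double RNAi lay wholly below control, and BEAF-32 RNAi spanned it (row RNAi log2 change -1.79, SE 0.71, unadjusted p = 0.0144, adjusted p = 0.697). CR44042 averaged 7.94 ± 1.46 CPM in control, 2.74 ± 1.27 in row RNAi and 3.41 ± 2.40 in double RNAi, again wholly below control in both (log2 changes -1.53 and -1.30). CR43807 averaged 3.26 ± 1.24 CPM in control against 0.777 ± 0.517 in row RNAi (log2 change -2.03, adjusted p = 0.802).

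In double RNAi 0 of 222 members passed in edgeR and DESeq2 and 1 in limma-voom (CR40469, above), where edgeR called 0.271% of all genes. Because CR44029 was left out for its call here, nothing is read from the count of 0. There were 24 members (10.8%) with an unadjusted p under 0.05, against 8.63% of all genes. Groups did not overlap for 17 higher members (background 6.52%) and 10 lower members (background 6.6%). Above 0 lay 133 members and below it 89, with a median log2 change of 0.09 and quartiles of -0.19 and 0.40, while all genes had a median of -0.00064 and quartiles of -0.17 and 0.19. The median was 0.018 without double RNAi replicate 2, so the lean to higher values rests in part on that library. It was 0.183 for members averaging under 10 CPM (143 tested) and 0.049 for those of at least 10 CPM (79 tested).

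The member with the smallest adjusted p in double RNAi was CR45973, which shares exon bases with CG13248, a lowly counted gene on the opposite strand (2.40 ± 2.69 CPM in control and 3.15 ± 2.34 in double RNAi; SD, n = 3 each). CR45973 stood at 7.59, 9.68 and 10.1 CPM in the control libraries, 11.5, 18.4 and 17.0 in BEAF-32 RNAi, 12.99, 12.4 and 14.5 in row RNAi and 19.0, 25.3 and 17.7 in double RNAi. All 9 dsRNA libraries lay above all 3 control libraries, with double RNAi the highest on average. Its log2 changes were 0.78 in BEAF-32 RNAi, 0.54 in row RNAi and 1.17 in double RNAi (SE 0.35, unadjusted p = 0.00142, adjusted p = 0.175), all against the same control libraries. CR32385, within an intron of Galphai, a G protein alpha subunit gene, on the opposite strand, had the same order. It stood at 1.52, 4.68 and 4.87 CPM in the control libraries, 5.56, 8.12 and 8.33 in BEAF-32 RNAi, 6.99, 5.52 and 6.80 in row RNAi and 11.1, 10.5 and 12.2 in double RNAi, so that control was again the lowest group in every library. Its log2 changes were 0.97, 0.78 and 1.59 (in double RNAi SE 0.52, unadjusted p = 0.00365, adjusted p = 0.250). Both transcripts were named because their double RNAi and control libraries did not overlap. The share of all genes with every dsRNA library above every control library was not computed, so nothing is read from this pattern. None of the groups received dsRNA of unrelated sequence, so a response to dsRNA as such and one to the loss of either target cannot be told apart.

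CR44029, the antisense transcript of the synaptic gene unc-13 on chromosome 4 that the rule leaves out, had a like pattern over the groups. It stood at 4.18, 4.68 and 5.21 CPM in the control libraries, 17.5, 11.2 and 9.37 in BEAF-32 RNAi, 13.7, 6.89 and 5.56 in row RNAi and 19.0, 24.0 and 14.4 in double RNAi, with all dsRNA libraries above all control libraries. Its log2 changes were 1.42 in BEAF-32 RNAi, 0.88 in row RNAi and 2.01 in double RNAi (adjusted p = 0.0121 in the last), while unc-13 averaged 74.0 ± 12.1, 75.2 ± 3.63, 78.1 ± 2.45 and 83.7 ± 6.541 CPM. The call of CR44029 in double RNAi depended on the method and the libraries. DESeq2 and limma-voom did not make it, and it was lost when any control library or double RNAi replicate 2 was left out. Had it been counted as a member, it would have been the only one called by edgeR in double RNAi. CR44029 was singled out by its call, so its likeness to CR45973 and CR32385 is a description only.

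The remaining members named in double RNAi had few counts. CR45577, which overlaps no gene, stood at 2.66, 1.56 and 3.48 CPM in control and 14.2, 5.47 and 7.43 in double RNAi (log2 change 1.80, SE 0.72, unadjusted p = 0.0153, adjusted p = 0.478). CR43701, the small noncoding RNA, within an intron of stet on the opposite strand, stood at 2.66, 3.75 and 2.09 CPM in control, 3.33, 7.93 and 3.399 in row RNAi and 0.443, 0.421 and 0.719 in double RNAi. Double RNAi lay wholly below control, at 1 to 3 counts per library (log2 change -2.27, SE 1.00, unadjusted p = 0.0268, adjusted p = 0.509). CR43685 averaged 16.6 ± 1.75 CPM in control and 8.64 ± 2.55 in double RNAi (log2 change -0.97), and CR43967, within an intron of CG34031 on the opposite strand, 12.8 ± 3.92 and 5.98 ± 1.25 (log2 change -1.09), both wholly below control with adjusted p of 0.470 and 0.509.

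**Figure D4:**
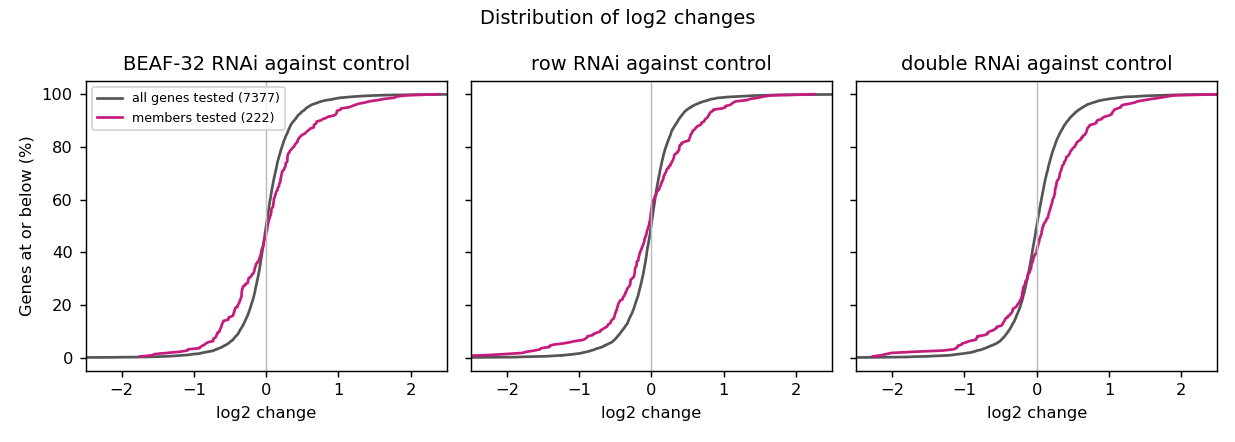
Cumulative share of genes at or below each log2 change against control, for the 222 tested members and all 7377 genes tested, in each dsRNA group; the axis leaves out the few most extreme values. The members spread more widely around 0, with quartiles of -0.34 and 0.29 in BEAF-32 RNAi against -0.16 and 0.16 for all genes, and sit to the right of 0 in double RNAi (median 0.09).

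The interaction asked whether the double RNAi value differs from the sum of the single ones on the log2 scale. It called 0 members and 0% of all genes in edgeR, and 14 members (6.31%) had an unadjusted p under 0.05 against 4.42% of all genes. DESeq2 and limma-voom also called 0 members. The smallest unadjusted p belonged to CR43148, which overlaps no gene and stood at 31.5, 16.9 and 31.3 CPM in the control libraries, 21.9, 13.4 and 16.3 in BEAF-32 RNAi, 18.0, 18.6 and 15.1 in row RNAi and 11.1, 35.8 and 32.1 in double RNAi. BEAF-32 RNAi and row RNAi averaged below control while double RNAi spanned it, with replicate 1 low (log2 change 1.26, SE 0.45, unadjusted p = 0.00679, adjusted p = 1.00). CR43958 had an interaction of 1.60 (unadjusted p = 0.00805), CR43701 -3.36 (0.00991) and CR43900 -0.50 (0.0102), each with an adjusted p of 1.00. Members lay above 0 in 127 cases and below in 95, with a median of 0.11 (all genes 0.0033), and the median was 0.035 without control replicate 1.

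Sorted by role, the tested members of the larger roles differed little in their medians. Transcripts sharing exons with a gene on the opposite strand (96 tested) had median log2 changes of -0.03, -0.02 and 0.12 in BEAF-32 RNAi, row RNAi and double RNAi. Those sharing exons on the same strand (28 tested) had 0.12, -0.03 and -0.01. Those overlapping a gene mostly through an intron only (26 tested) had 0.08, -0.13 and 0.20, and those overlapping no gene (52 tested) 0.05, -0.09 and 0.04. The same-strand group was also the more highly and evenly counted, with a median of 16.9 CPM and a median coefficient of variation of 0.239. Whether reads of the genes that share these exons enter those values was not tested. No role held a call, and the differences between roles were not tested.

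**Figure D5:**
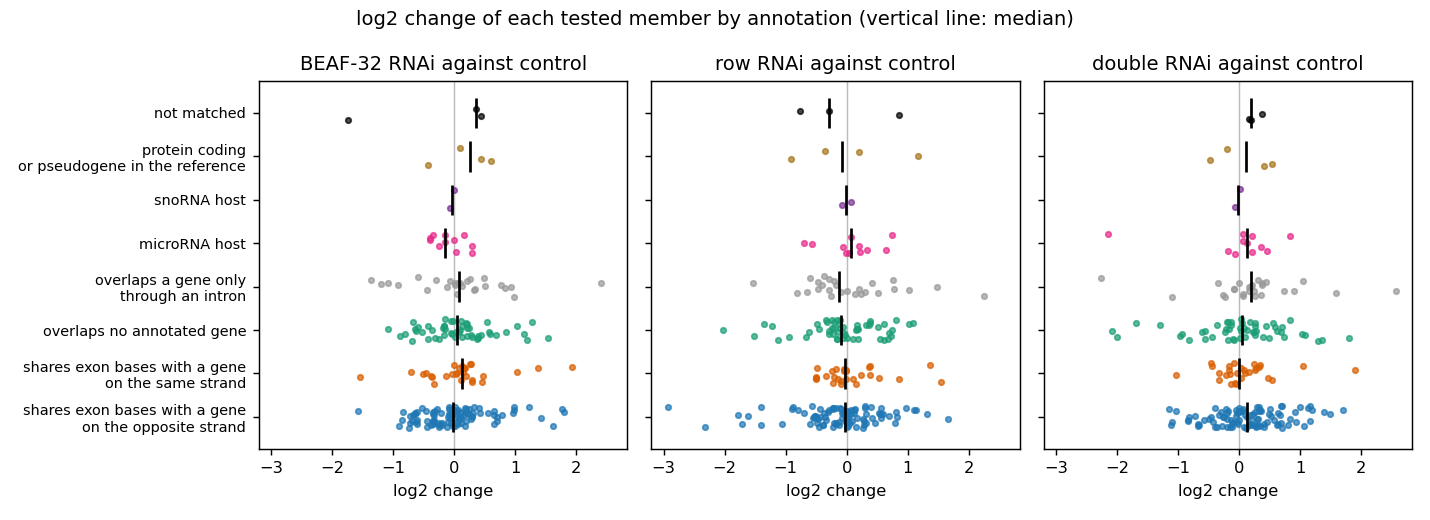
log2 change against control of each tested member (points) by its annotation role, with the median as a vertical line, in the 3 dsRNA groups. In BEAF-32 RNAi medians lie from -0.16 to 0.12 among the roles with at least 11 tested members. Of the smaller roles, unmatched members (3 tested) had 0.36, those listed as protein coding or pseudogene (4 tested) 0.26 and snoRNA hosts (2 tested) -0.04. The role labelled as only through an intron also holds CR43253, which shares exon bases with a noncoding gene.

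The microRNA hosts held 2.02% of member counts, and 11 of the 12 were tested. After the bantam host CR43334, the highest were CR43836, the host of mir-31b (50.6 CPM over the 12 libraries), CR31044 (46.2), CR43626, the host of mir-282 (15.1), and CR46006, the host of mir-276a (14.4). CR43836 shares exon bases with CG10962 on the same strand, and its exons do not overlap mir-31b. Its total was 97.8% of that of CG10962, and whether its level includes reads of that gene was not tested. CR43650, the host of mir-8, the fly member of the miR-200 family, averaged 5.05 CPM, and CR43651, the host of mir-14, which limits cell death, averaged 2.11. CR43651 stood at 1.90, 1.56 and 5.21 CPM in the control libraries, 3.58, 1.25 and 2.08 in BEAF-32 RNAi, 4.99, 2.07 and 1.24 in row RNAi and 0, 0 and 1.44 in double RNAi. Double RNAi lay wholly below control, with 0 counts in 2 of its libraries (log2 change -2.16, SE 1.08, unadjusted p = 0.0507, adjusted p = 0.579). The mir-184 host CR44206 averaged 2.09 CPM and was not tested. The hosts' medians were -0.16, 0.07 and 0.14 in BEAF-32 RNAi, row RNAi and double RNAi, with 0 called. A host is a precursor transcript, and the mature microRNA was not measured.

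Noncoding RNAs known by name rather than by a CR number gave a point of comparison. Of 31 listed, 27 were in the table, 9 of them were listed at 0 and 15 were tested, with 0 called by edgeR in each comparison with control (0, 2 and 3 had an unadjusted p under 0.05 in BEAF-32 RNAi, row RNAi and double RNAi) and median log2 changes of -0.04, -0.02 and 0.18. The snoRNA host Uhg7 averaged 3241 CPM, and the dosage compensation RNA roX2 averaged 220.3 CPM while roX1 had 11 counts in all, an average of 0.267 CPM. The heat shock locus RNA Hsromega averaged 86.1 CPM. Genes whose products make or remove such transcripts were listed beside them, and edgeR called 0 in any comparison with control among 15 of the RNA exosome and its cofactors, 14 of the Integrator complex, 12 of cleavage and polyadenylation and 9 of nonsense-mediated decay. Over all genes the share called was 0.0271% in BEAF-32 RNAi, 0.19% in row RNAi and 0.271% in double RNAi, so a count of 0 in lists of this size says nothing about them. Their median log2 changes in double RNAi were 0.02, 0.02, -0.0018 and -0.01, and at most 1 gene of each list had an unadjusted p under 0.05 in any of these comparisons. The most highly counted were the cap-binding subunit gene Cbp20 (84.7 CPM over the 12 libraries), the Integrator endonuclease gene IntS11 (240.2), the poly(A)-binding protein gene Pabp2 (115.8) and eIF4AIII (173), a core gene of the exon junction complex.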

How the data were processed

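Gene expression was measured by 3' RNA-seq in 12 libraries of S2 cells, 3 in each of 4 groups taken from the labels. Per the labels' protocols, 100 ng of RNA was reverse transcribed with barcoded oligo-dT primers. Alignment used STAR and the build dm3, per the submitters' processing notes. Versions, the annotation, how reads were assigned to genes, strand use and whether molecular identifiers were collapsed were not given in the sources used here. Raw counts per gene were deposited by the authors and were used unchanged.

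Members and gene lists were chosen with earlier results of these data known. The fly annotation BDGP6.54 and the RefSeq gene table, of another build, served for names, biotypes and neighbouring genes, and no coordinates are given. The analysis used edgeR 4.0.16 in R 4.3.3: filterByExpr by group (minimum count 10, leaving 7377 genes), TMM scaling (factors 0.962 to 1.05) and a robust quasi-likelihood fit over all 12 libraries with no block (8 residual degrees of freedom). Tests were each dsRNA group against control, the interaction and any difference among groups, with Benjamini-Hochberg adjustment over all genes tested and a threshold of 0.05. SE is the log2 change over the square root of F. CPM values use TMM-scaled totals. The fit was tested on simulated data. Named members were the 12 highest, any called, up to 4 in each direction per comparison with the smallest unadjusted p whose groups did not overlap, 4 for the interaction, those at the edge of the rule, CR44029, the targets and overlapping genes; other names are members described by role or chromosome. Alternatives were DESeq2's size factors, library totals, no filter, at least 10 CPM in 3 libraries, DESeq2 1.42.0, limma-voom (limma 3.58.1), a replicate block, the compared groups only, a threshold of 0.01, totals of 30 or 120, CR44029 included, and each library left out.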

Additional observations from a re-analysis of the deposited data

Results flagged for a closer look

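CR45018, the transcript that shares exons with IP3K2, was singled out because BEAF-32 RNAi and row RNAi lay on opposite sides of control: its log2 change was 0.14 in BEAF-32 RNAi, with all 3 libraries above control, and -0.20 in row RNAi, with all 3 below. The difference between these dsRNA groups was not tested by itself. The test of any difference among the 4 groups gave an adjusted p of 0.148 in edgeR and 0.0336 in DESeq2, and limma-voom did not call CR45018. The share of all genes with such a pattern was not computed.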

How the results depend on the processing

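Depth limits most statements, since 181 of the 260 members averaged under 10 CPM, and the 38 members left out by the filter were not tested. For the members the count of calls was 0 in every comparison, and it became 1 in double RNAi with limma-voom (CR40469) or with CR44029 counted as a member, and 1 in the test of any difference with no filter (CR43957), DESeq2 (CR45018), limma-voom (CR40469) or CR44029 counted as a member; leaving out 1 library gave 0 to 1 there, the 1 being CR43957 without double RNAi replicate 3. Over all genes, calls went from 14 to 8 in row RNAi and from 20 to 10 in double RNAi at an adjusted p of 0.01, and in any difference from 28 to 18 at 0.01, 51 with DESeq2 and 75 with no filter. Leaving out 1 library gave 1 to 4 calls in BEAF-32 RNAi, 4 to 13 in row RNAi, 9 to 23 in double RNAi and 18 to 39 in any difference. The median log2 change of the members went from 0.09 to 0.018 in double RNAi without double RNAi replicate 2 and from 0.11 to 0.035 in the interaction without control replicate 1. A log2 change close to 0 turned sign for CR43334 in row RNAi (-0.0047; 0.0028 with no filter, 0.012 with limma-voom and with a replicate block) and for CR45018 in the interaction (0.041 with library totals). Leaving out 1 library turned the sign of small changes, with ranges in BEAF-32 RNAi of -0.165 to 0.0264 (CR31514), -0.0488 to 0.124 (CR43812), -0.0608 to 0.274 (CR44814), -0.146 to 0.00672 (CR45184) and -0.110 to 0.0784 (CR45204). In row RNAi they were -0.142 to 0.0278 (CR31514), -0.104 to 0.0470 (CR42862), -0.170 to 0.122 (CR43334), -0.115 to 0.105 (CR43812) and -0.111 to 0.225 (CR44814), and in double RNAi -0.0527 to 0.0904 (CR31514), -0.153 to 0.0454 (CR42862), -0.101 to 0.191 (CR43334) and -0.0155 to 0.0406 (CR45184). In the interaction they were -0.00636 to 0.466 (CR43264), -0.0328 to 0.190 (CR43812) and -0.0666 to 0.0203 (CR45018). The cause of these shifts was not tested. Deviations from the group means correlated at -0.117 to 0.0617 between same-numbered libraries and at -0.111 to 0.0949 between differently numbered ones. These values, from 3 libraries per group, cannot show whether same-numbered libraries shared a culture or batch. With a replicate block 0 members were called in any comparison. Over all genes that block gave 2, 13 and 18 calls in BEAF-32 RNAi, row RNAi and double RNAi.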

Other observations

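By chromosome the members were spread over the arms, with 50 on the X, 35 on 2L, 50 on 2R, 65 on 3L, 47 on 3R and 7 on chromosome 4, and the rest on heterochromatic or unplaced sequence. The highest on 3L was CR45184 and on 3R CR31514, while the highest on 2L averaged 45.0 CPM. The members of 3L held 10.1% of member counts, those of 2R 5.41%, those of 3R 4.77% and those of 2L 2.31%, against 76.6% on the X. Most of the X share lay in CR40469 and CR42491, which together held 67.0% of all member counts. Chromosome 4 held 0.417%.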
